A study of Mus musculus with 17 samples.

Results

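The 10 genes described here are common markers of fibroblasts, pericytes and myofibroblasts: Acta2, Tagln, Vim, Fn1, Pdgfra, Pdgfrb, Postn, Des, S100a4 and Thy1. They were chosen by name, their symbols were matched to Ensembl identifiers without the version, and all 10 were found among the 53313 gene identifiers counted in each of the 17 libraries. RNA had been sequenced from primary tubular epithelial cells (PTEC), cultured from kidneys that had been digested with collagenase, of wild-type (WT) C57BL/6Rj mice, and from a piece of the right kidney of WT male mice of the same strain, which the study's methods call C57BL/6JRj. The 4 non-senescent PTEC cultures were not irradiated and were taken at day 6. The 4 senescent cultures had received 10 Gray of γ-irradiation and were taken at day 16, so that irradiation and time in culture cannot be told apart. The kidneys came from untreated mice of 3, 12 and 24 months, with 3 mice at each age. None of the groups carried a transgene or a drug. The number of mice behind the PTEC cultures is not given in the sources used here, so p-values in PTEC measure the spread between these cultures, which may be technical.

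Between 26963442 and 35409144 reads per library were counted on genes in PTEC and between 37311247 and 66894790 in kidneys, and depth rose with age from at most 49471409 at 3 months to at least 54097073 at 12 and 62761670 at 24 months. The 3-month kidneys, the older kidneys and the PTEC had been counted on 3 different gene sets. For every gene, age and gene set therefore cannot be told apart in the comparisons with 3 months. Among the 10 genes, the model version differed for Acta2 alone, with version 8 in PTEC and 3-month kidneys and version 9 in 12- and 24-month kidneys. The labels call the cultured cells proximal tubular cells. The epithelial genes Pax8 (249 ± 29.5 CPM, SD, n = 4) and Cdh16 (769 ± 246 CPM) were abundant in non-senescent PTEC, whereas Slc34a1, the phosphate transporter that defines the proximal tubule, was at 9.12 ± 10.8 CPM there and had 0 to 2 counts in senescent PTEC. Lrp2, the endocytic receptor megalin of the proximal tubule, was at 203 ± 225 CPM in non-senescent and 227 ± 96.2 CPM in senescent PTEC (adjusted p = 0.853, edgeR). Cdkn1a, which encodes the cell cycle inhibitor p21, was at 313 ± 75.4 CPM in non-senescent and 772 ± 115 CPM in senescent cultures.

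Fibroblasts and pericytes lie between the tubules and along the capillaries, make the extracellular matrix and wrap the vessels. When kidneys scar, some of them become myofibroblasts, contractile cells that make smooth muscle actin and lay down collagen and fibronectin. The 10 genes cover these roles in different ways. Acta2 encodes smooth muscle α-actin and Tagln the actin-binding protein transgelin, both targets of the serum response factor SRF. Vim and Des encode the intermediate filament proteins vimentin and desmin. Fn1 (fibronectin) and Postn (periostin) are secreted into the matrix. Pdgfra and Pdgfrb are receptors for platelet-derived growth factors, S100a4 is a calcium-binding protein, and Thy1 is a cell surface glycoprotein of fibroblasts, also found on T cells of the mouse. Several of them are not confined to stromal cells, and cultured epithelial cells can also make Vim, Fn1 and Acta2.

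Short stretches of the promoters are shown because Acta2 and Tagln are textbook targets of SRF, which binds the CArG box, a 10-base element of a CC and a GG around 6 bases that are all A or T. RefSeq promoter windows (GRCm38.p6, 250 bases before to 50 after a start) were at hand for 6 of the 10 genes, Acta2, Vim, Pdgfra, Postn, Des and S100a4. Both strands were searched. None of the 6 held a complete CArG box, which 1.63% of all 32851 windows held. With 1 of the 6 inner bases allowed to be G or C, a form that 9.98% of the windows held, the Acta2 window had 2 matches, beginning 84 and 34 bases before the start, and the windows of the other 5 genes had none. They lie at chr19:34255438-34255467 and chr19:34255388-34255417, and are printed 5′ to 3′ on the minus strand with the match in capitals.
Acta2, first match: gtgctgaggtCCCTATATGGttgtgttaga
Acta2, second match: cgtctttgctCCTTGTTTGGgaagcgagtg

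The letters TATAAA, found in 13.6% of the windows on either strand, began 26 bases before the second of 2 Postn starts, 32 before that of Vim and 31 before that of S100a4. Postn rose in senescent PTEC, as given below, and Vim and S100a4 did not. Tagln, Fn1, Thy1 and Pdgfrb, which also rose, had no window to search. Whether the letters TATAAA go with a rise was not tested. The stretches of Postn (chr3:54361069-54361098), Vim (chr2:13574267-13574296) and S100a4 (chr3:90603727-90603756), all on the plus strand, carry TATAAA in capitals.
Postn: agcccagagctaTATAAActcagctctcca
Vim: tcctaacagtgtTATAAAagcagcgccctt
S100a4: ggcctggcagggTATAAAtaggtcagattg
The 250 bases upstream of that Postn start (chr3:54360857-54361106) are given whole, since Postn was among the genes that rose most in senescent PTEC.
Postn, upstream: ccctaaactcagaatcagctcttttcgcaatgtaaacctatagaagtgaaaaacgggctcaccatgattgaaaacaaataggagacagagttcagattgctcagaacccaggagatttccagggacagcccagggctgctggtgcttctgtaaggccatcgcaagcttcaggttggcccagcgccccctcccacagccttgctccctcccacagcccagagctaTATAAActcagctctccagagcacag
A match of letters is a description of the window and was not tested as a binding site.

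In GRCm38, with the positions of GENCODE release M 21, Acta2 lies at chr19:34241090-34255590 on the minus strand and Tagln at chr9:45929619-45936058 on the minus strand. Vim lies at chr2:13573927-13582826 (plus), Des at chr1:75360329-75368579 (plus), Fn1 at chr1:71585520-71653200 (minus) and Postn at chr3:54361109-54391037 (plus). Pdgfra lies at chr5:75152292-75198215, Pdgfrb at chr18:61045150-61085061, S100a4 at chr3:90603771-90606045 and Thy1 at chr9:44043384-44048579, all on the plus strand. All are protein coding, and the exon lengths used here include untranslated regions. Which parts of a gene the deposited values count is not given in the sources used here. Tagln shares 1241 exonic bases with the antisense gene Gm48529, which had 24 to 130 counts per library. It also shares 108 with Pcsk7 on the opposite strand, which had 982 to 2139 counts. Since the strand setting of the counting is not given in the sources used here, the reads of such pairs may not have been told apart. S100a4 shares 302 of its 584 exonic bases with the protein-coding gene Gm42674, which had 0 to 8 counts. Both lie on the same strand, so a strand setting could not tell their reads apart.

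The first comparison asked whether the marker genes differed between senescent and non-senescent PTEC. In senescent PTEC, 6 of the 10 genes were up-regulated: Acta2, Postn, Thy1, Fn1, Tagln and Pdgfrb, with log2 fold changes from 1.48 to 3.52. None was down-regulated, and Vim, Pdgfra, Des and S100a4 did not pass. Calls required an adjusted p under 0.05 in edgeR's quasi-likelihood test together with an absolute log2 fold change above 0.5. In this comparison 39.8% of all 15434 genes tested were called, and 20.1% were up-regulated. The groups of 5 members did not overlap, all higher in senescent cultures, whereas 42.0% of all genes did not overlap in either direction. The median log2 fold change of the 10 members was 1.98, and that of all genes was 0.00. At an unadjusted p under 0.05 there were 8 members, against 51.6% of all genes. With each culture left out in turn, 5 of the 6 called genes were called in all 8 fits, and Pdgfrb in 5 of them. With the replicate number as a block, Pdgfra (edgeR adjusted p = 0.0399) and Des (0.0440) were called too, and of all genes 44.6%. In bulk RNA, more cells of a type and more RNA per cell cannot be told apart.

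**Figure D1:**
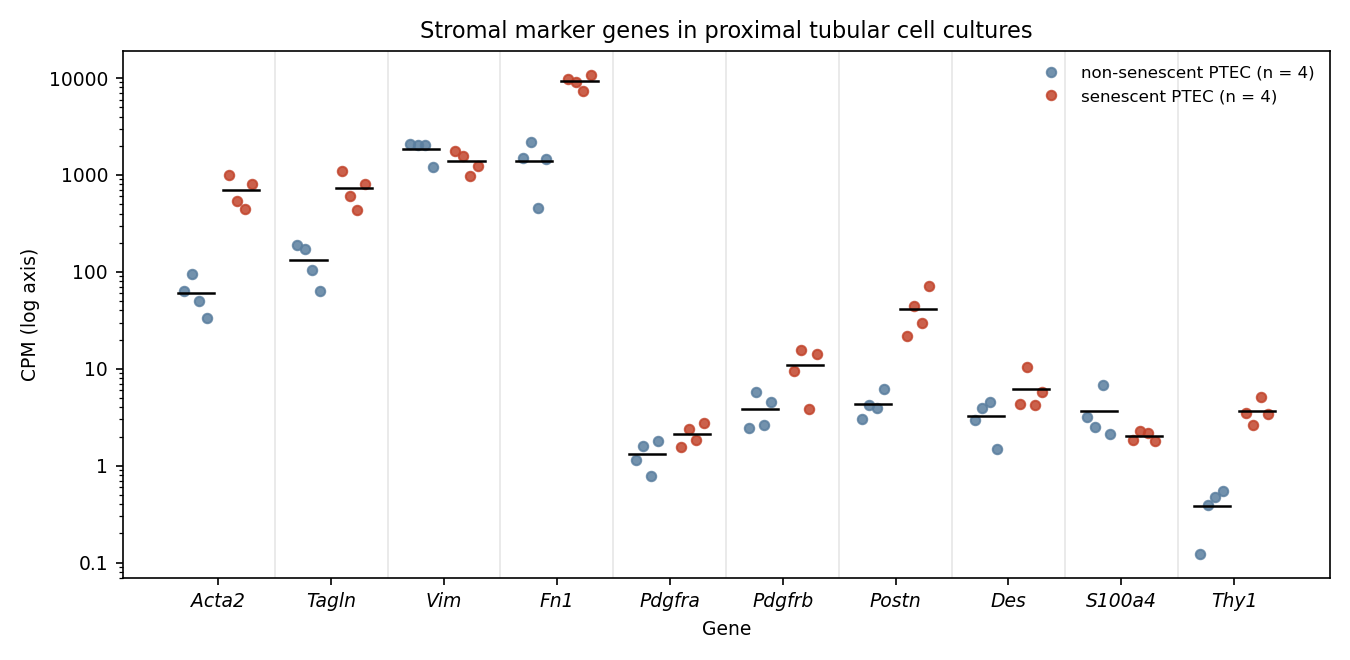
Expression of the 10 marker genes in each PTEC culture, in CPM on a log axis, with non-senescent cultures in blue and senescent cultures in red (n = 4 each) and black bars at the group means. The groups of Acta2, Tagln, Fn1, Postn and Thy1 do not overlap, and those of the other 5 genes do.

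Of the cytoskeletal genes, both targets of SRF rose. Acta2 was at 64.0, 94.5, 49.9 and 33.7 CPM in non-senescent PTEC and at 991, 537, 448 and 804 CPM in senescent PTEC (CPM are counts divided by the library's TMM-scaled size, here within the PTEC, replicates 1 to 4 in order). Every senescent culture lay above every non-senescent one, and the difference of 11.5-fold had a log2 fold change of 3.52 (SE 0.369, adjusted p = 8.84e-05). Tagln was at 189.6, 172, 104 and 63.8 CPM in non-senescent and 1098, 612, 434 and 806 CPM in senescent cultures. The Tagln groups did not overlap either, with a log2 fold change of 2.48 (SE 0.387, adjusted p = 0.000835). Acta2 and Tagln ranked the senescent cultures alike, from replicate 1 with the most, through 4 and 2, to 3 with the least. The ratio of Tagln to Acta2, both taken per kilobase of exon within a library, lay between 2.01 and 3.27 in non-senescent cultures and between 1.07 and 1.26 in senescent ones.

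Vim and Des, the intermediate filament genes among the 10, were not called. Vim, among the most abundant of the members in PTEC, was at 2086, 2022, 2030 and 1213 CPM in non-senescent and 1754, 1559, 969 and 1229 CPM in senescent cultures. These ranges overlapped, and Vim had a log2 fold change of -0.42 (SE 0.238, adjusted p = 0.185). Replicate 4 of the non-senescent cultures stood apart with the lowest Vim, and it also had the most of the proximal tubule genes, 829 CPM in sum against 229 to 277 CPM in the others of its group. Des, a filament of muscle, mesangial cells and pericytes, was at 2.98, 3.97, 4.51 and 1.48 CPM in non-senescent and 4.28, 10.3, 4.19 and 5.80 CPM in senescent cultures, with a log2 fold change of 0.92 (SE 0.397, adjusted p = 0.0856). In a fit with the replicate number as a block, which the labels give to both groups, Des was called (adjusted p = 0.0440). Its largest value was that of senescent replicate 2, without which the log2 fold change was 0.56 (adjusted p = 0.268). Of the other filament genes of these types, Synm (synemin, log2 fold change 2.81, adjusted p = 0.00108) and Nes (nestin, 0.66, 0.0409) rose, Prph (-0.59, 0.285) did not pass, and Gfap was removed by the filter on low counts.

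Both matrix genes rose. Fn1 was at 1510, 2174, 456 and 1454 CPM in non-senescent cultures and at 9662, 9201, 7330 and 10827 CPM in senescent ones. No culture of one group reached the other, and the log2 fold change was 2.73 (SE 0.409, adjusted p = 0.000662), with non-senescent replicate 3 the lowest. Per kilobase of exon, Fn1 passed Vim to become the most abundant of the 10 genes, at 619 ± 92.6 CPM per kb against 227 ± 57.3 for Vim (SD, n = 4, all libraries scaled together), while in non-senescent cultures Vim had led with 308 ± 71.0 and Fn1 had 95.1 ± 48.1. Postn was at 3.01, 4.27, 3.92 and 6.20 CPM in non-senescent and 22.0, 45.0, 29.9 and 70.7 CPM in senescent cultures. Its log2 fold change was 3.27 (SE 0.384, adjusted p = 0.000171). Senescent replicate 4 had the most of both matrix genes.

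Of the receptors for platelet-derived growth factors, Pdgfrb was called and Pdgfra was not. Pdgfrb was at 2.43, 5.81, 2.63 and 4.58 CPM in non-senescent and 9.52, 15.7, 3.89 and 14.1 CPM in senescent cultures. Senescent replicate 3 lay within the non-senescent range, while each senescent culture lay above the non-senescent culture of the same number. With the replicate block the log2 fold change was 1.41 (edgeR adjusted p = 0.00133). Senescent replicates 2 and 3, with the most and the least Pdgfrb of their group, also had the most and the least of the endothelial genes (284 and 73.2 CPM in sum) and of the macrophage genes (247 and 61.9 CPM), whose part in the Pdgfrb level was not tested. The log2 fold change was 1.48 (SE 0.441, adjusted p = 0.0215), and the call was lost without non-senescent replicate 1 (adjusted p = 0.0580), without senescent replicate 2 (0.0597) or without senescent replicate 4 (0.0593). Pdgfra was at 1.14, 1.61, 0.784 and 1.81 CPM in non-senescent and 1.58, 2.38, 1.84 and 2.73 CPM in senescent cultures, from 20 to 79 counts per library. The ranges overlapped, with a log2 fold change of 0.67 (SE 0.315, adjusted p = 0.113), and Pdgfra was called only with the replicate block (0.70, adjusted p = 0.0399). With that block, 8 of the 10 genes were called, and of all genes 44.6%.

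Of Thy1 and S100a4, a surface and a calcium-binding protein, Thy1 was called higher and S100a4 was not called. Thy1 had between 4 and 15 counts in each non-senescent culture, 0.123, 0.394, 0.471 and 0.554 CPM, and 3.51, 2.65, 5.11 and 3.42 CPM in the senescent ones, where it had 79 to 189 counts. The groups did not overlap, and the log2 fold change was 3.26 (SE 0.416, adjusted p = 0.000274). The level stayed low after the rise, and Cd3e, a T cell gene, had 0 counts in every non-senescent and at most 1 in every senescent culture. The 6 T cell genes summed to 1.998 to 3.84 CPM in non-senescent and 2.14 to 2.52 CPM in senescent cultures, most of it Lck (2.71 and 2.28 CPM on average), which did not pass (adjusted p = 0.444). S100a4 was at 3.17, 2.53, 6.86 and 2.10 CPM in non-senescent and 1.83, 2.28, 2.16 and 1.80 CPM in senescent cultures, with a log2 fold change of -0.86 (SE 0.368, adjusted p = 0.0857). Replicate 3 of the non-senescent cultures held most of that difference, since without it the log2 fold change was -0.36. S100a4 was called lower only without non-senescent replicate 4 (-1.05, adjusted p = 0.0407).

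Gene lists around the 10 markers were set beside them as counts. Here and in the next paragraphs on PTEC, these stand beside the 39.8% of all genes called, of which 20.1% of all genes were up-regulated. Of 12 further contractile genes of smooth muscle, 8 were up-regulated in senescent PTEC and none was down-regulated. The median of their log2 fold changes was 1.56. The largest changes were those of Lmod1 (leiomodin, log2 fold change 4.46, adjusted p = 5.23e-05), Cnn1 (calponin, 4.37, adjusted p = 6.23e-05) and Actg2 (smooth muscle γ-actin, 3.40, adjusted p = 0.00514). Myh11, the smooth muscle myosin that marks the mature cell, was at 2.72 ± 2.55 and 7.39 ± 5.28 CPM and did not pass (adjusted p = 0.163), although it was called with the replicate block (0.00166). The genes of SRF and its coactivators did not pass either. Srf had a log2 fold change of -0.12 (adjusted p = 0.519), Mrtfa of -0.01 (0.933), Mrtfb of 0.35 (0.318) and Myocd of 1.4 (0.109), the last at 0.570 ± 0.433 CPM in senescent cultures and called with the replicate block (adjusted p = 0.0118).

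Matrix genes rose beside Fn1 and Postn. Of 5 fibrillar collagen genes, 4 were up-regulated, among them Col3a1 (log2 fold change 2.08, adjusted p = 0.0385), Col5a2 (2.07, 0.000106) and Col1a2 (2.03, 0.0251), while Col1a1 reached 1.64 with an adjusted p of 0.0571 (0.00763 and called with the replicate block). Of 12 matricellular proteins and fibronectin receptors, 6 were up-regulated and 2 were down-regulated. Tnc (tenascin C) had a log2 fold change of 2.58 (adjusted p = 0.00139), Thbs1 (thrombospondin) of 1.75 (0.00393) and Tgfbi of -3.26 (0.00177). Of the ligands of the PDGF receptors, Pdgfd (1.70, adjusted p = 6.23e-05) and Pdgfc (1.18, 0.00471) rose, and Pdgfb (0.49, 0.0825) and Pdgfa (0.32, 0.15) did not pass.

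Other markers of stromal cells were mixed and mostly low. Of 11 further pericyte and mesangial genes, 8 were tested, 5 were up-regulated and 1, Cspg4 (log2 fold change -1.25, adjusted p = 0.0198), was down-regulated. Mcam reached 179 ± 24.2 CPM from 35.1 ± 10.0 (2.35, adjusted p = 4.47e-05) and Notch3 30.1 ± 7.76 from 6.47 ± 4.07 CPM (2.22, 0.00214). Of 15 further fibroblast genes only 8 passed the filter, 3 were up-regulated and 2 were down-regulated. The fibroblast proteoglycan gene Dcn rose from 0.0893 ± 0.0665 to 0.765 ± 0.239 CPM (3.07, adjusted p = 0.00184), and Lum had at most 2 counts in any PTEC culture. In senescent PTEC, 9 of these 15 fibroblast genes had a mean under 1 CPM, and their summed level was 50.8 to 93.3 CPM, against 88.8 to 107.7 CPM in non-senescent PTEC. Most of that sum was Pdpn (podoplanin), which fell from a mean of 81.2 to 55.9 CPM (log2 fold change -0.54, SE 0.18, adjusted p = 0.0343), whereas 5 of the 8 tested genes had a higher estimate, with a median of 1.06. Of the other S100 genes, 7 of 10 were tested and 2 were down-regulated, S100a10 (-0.76, adjusted p = 0.0281) and S100a6 (-0.74, 0.0488).

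**Figure D2:**
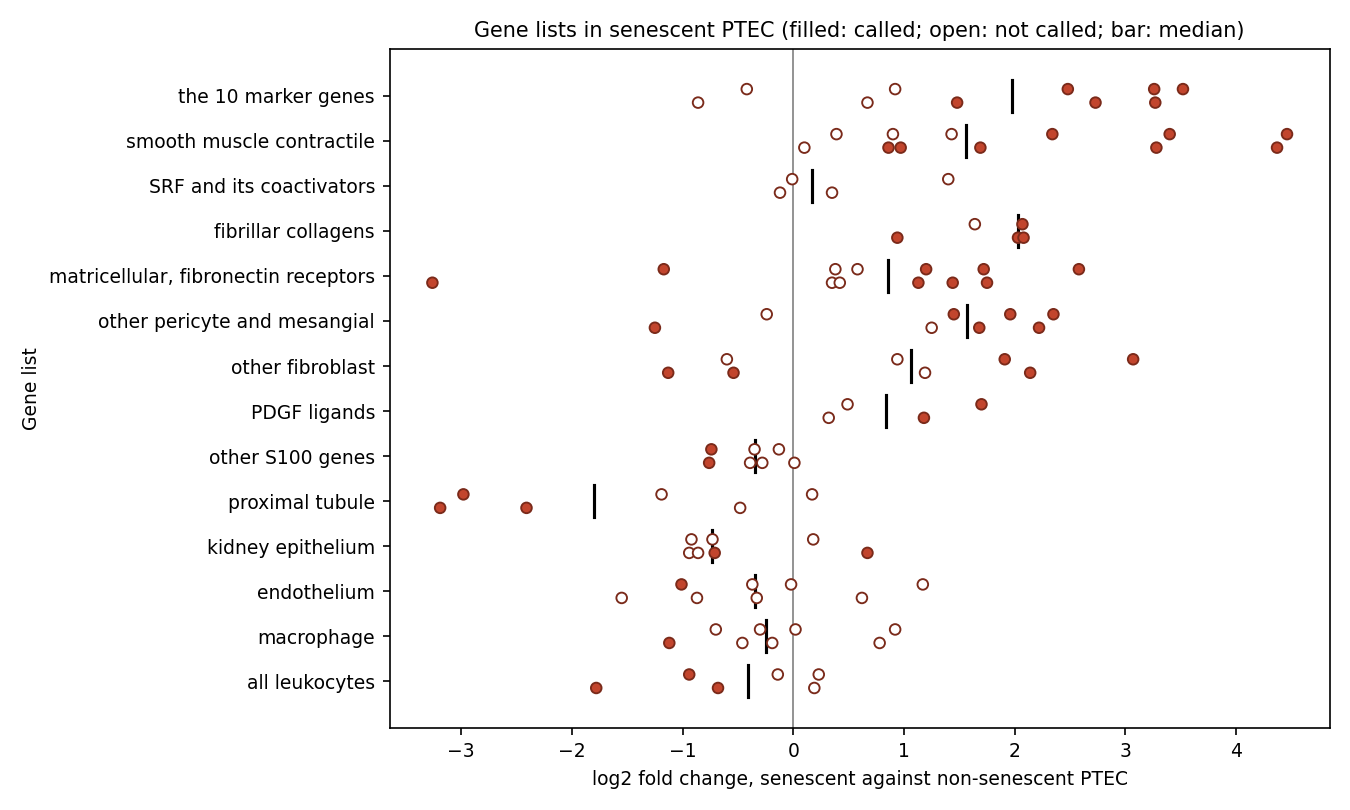
Log2 fold changes of the tested genes of each list in senescent against non-senescent PTEC, 1 point per gene, filled where called, with the list's median as a black bar. The 10 marker genes have a median of 1.98, the further contractile genes 1.56 and the proximal tubule genes -1.80.

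None of the endothelial, macrophage and leukocyte markers was called higher without the replicate block. With it, the endothelial genes Flt1 (adjusted p = 0.00133) and Emcn (0.00703) and the macrophage genes Lyz2 (0.0271) and Mrc1 (0.0452) were called higher, and Tek (0.00095), Tie1 (0.0392) and Adgre1 (0.0386) lower. Of 113 tested genes in all the lists around the markers, 53 were called without the block and 71 with it. Of all genes, 39.8% were called without the block and 44.6% with it. The 8 endothelial genes summed to 84.0 to 269 CPM in non-senescent and 73.2 to 284 CPM in senescent cultures, with 1 gene called lower. The 9 macrophage genes summed to 88.9 to 139.5 CPM in non-senescent and 61.9 to 247 CPM in senescent cultures, with 1 of the 8 tested called lower. Of the 8 leukocyte genes, 6 were tested and 3 were called lower. Among 7 kidney epithelial genes Pax2 rose (log2 fold change 0.67, adjusted p = 0.00696) and Cdh16 fell (-0.71, 0.0275), while Cdh1, Epcam, Krt8 and Krt18 were called lower with the block only, and the summed level of the 7 was 3124 to 4325 CPM in non-senescent and 1485 to 3189 CPM in senescent cultures. Of 11 proximal tubule genes, 6 were tested and 3 fell, including the transcription factor Hnf4a (-2.98, adjusted p = 3.62e-06). Of 5 podocyte genes, 4 were tested and 2 rose, Nphs1 (nephrin, 3.36, adjusted p = 0.00998), at 1.03 ± 0.562 CPM after the rise, and Synpo (synaptopodin, 2.11, 0.000328), at 257 ± 75.7 CPM. Of 8 immediate early and heat shock genes, 3 rose, Fos (1.61, adjusted p = 0.00845), Fosb (1.09, 0.0139) and Egr1 (0.75, 0.0471), and the list summed to 314 to 429.5 CPM in non-senescent and 341.5 to 567 CPM in senescent cultures. The part of a changed cell mixture or of these genes in the rise of the 6 marker genes was not tested.

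The second comparison asked how the marker genes changed with age in whole kidneys. None of the 10 was called between any of the 3 pairs of ages with edgeR. Of all 17067 genes tested, 2.34% were called between 24 and 3 months, 2.58% between 12 and 3 months and 1.33% between 24 and 12 months. The members with an unadjusted p under 0.05 numbered 4, 5 and 3, while 18.2%, 16.5% and 15.2% of all genes were under it. DESeq2, run as an alternative on unfiltered genes, called 3.45%, 3.69% and 2.59% of all genes in these comparisons. Of the members it called Fn1 (adjusted p = 0.00937) and Thy1 (0.00852) higher at 24 than at 3 months, Acta2 lower (0.00287) and Thy1 higher (0.0479) at 12 than at 3 months, and Acta2 higher at 24 than at 12 months (0.00435). From 3 to 24 months 9 of the 10 genes had a higher estimate, of which those of Acta2, Tagln and Postn changed sign under other settings or without single kidneys, and their median was 0.40 on the log2 scale against 0.00 for all genes. The groups of 3 members, Fn1, Des and Thy1, did not overlap between these ages, all higher at 24 months, and 22.0% of all genes did not overlap in either direction. Between 12 and 3 months 4 members were higher without overlap (Fn1, Pdgfra, Des and Thy1) and 1, Acta2, lower, beside 20.3% of all genes. Between 24 and 12 months 4 were higher without overlap (Acta2, Vim, Fn1 and Postn), beside 25.6% of all genes. The 3 comparisons share their kidneys and are not independent.

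**Figure D3:**
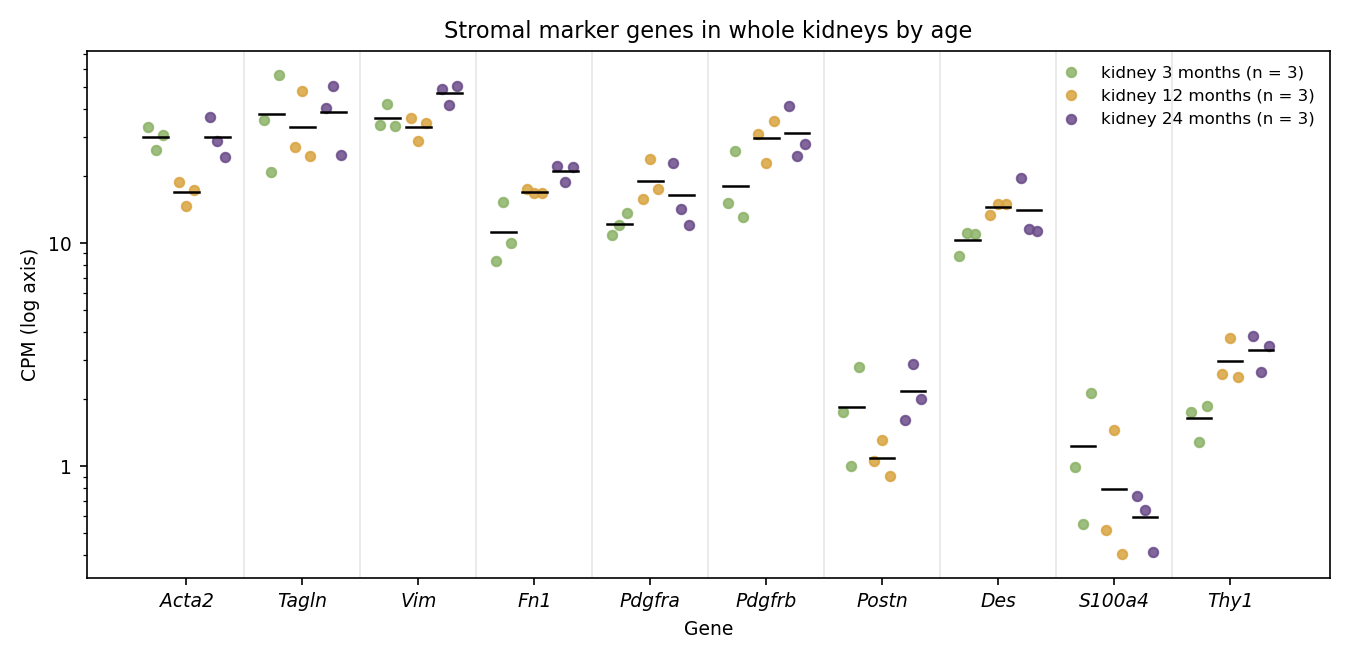
Expression of the 10 marker genes in each whole kidney, in CPM on a log axis, at 3 months (green), 12 months (yellow) and 24 months (purple), n = 3 each, with black bars at the group means. Fn1 lies between 8.30 and 15.2 CPM at 3 months and between 18.7 and 22.3 CPM at 24 months, and Acta2 is lowest in the 12-month kidneys.

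Between 24 and 3 months, Fn1 and Thy1 had the smallest p-values of the 10 genes. Fn1 was at 8.30, 15.2 and 9.97 CPM in the kidneys of 3 months, 17.5, 16.8 and 16.8 CPM at 12 months and 22.3, 18.7 and 22.0 CPM at 24 months (CPM scaled within the kidneys, replicates 1 to 3 in order). The 3 ages did not overlap and lay in order of age. The log2 fold change from 3 to 24 months was 0.91 (SE 0.213, adjusted p = 0.0670), and without 3-month replicate 2, the highest of its age, Fn1 was called (1.21, adjusted p = 0.00854), as were 4.52% of all genes. Thy1 was at 1.76, 1.29 and 1.87 CPM at 3 months, 2.60, 3.77 and 2.51 CPM at 12 months and 3.83, 2.64 and 3.46 CPM at 24 months. Both older ages lay above 3 months and overlapped each other. The log2 fold change from 3 to 24 months was 1.02 (SE 0.25, adjusted p = 0.0769) and from 3 to 12 months 0.85 (SE 0.251, adjusted p = 0.120).

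Thy1 is also found on T cells, and 2 of 6 T cell genes were called higher at 24 than at 3 months and 1 at 12 than at 3 months. Cd3g (log2 fold change 1.68, adjusted p = 0.0148) and Cd3e (1.63, 0.0471) were those at 24 months, and Cd3g (1.34, 0.0374) was the one at 12 months. The summed level of the 6 was 1.995 to 2.83 CPM at 3 months, 3.92 to 7.93 CPM at 12 months and 4.95 to 6.38 CPM at 24 months, and the 9 macrophage genes summed to 109.9 to 177, 159.7 to 185 and 182 to 236 CPM. The part of T cells in the Thy1 level was not tested. The fibrillar collagens had higher estimates at 24 than at 3 months in 5 of 5 genes (median 0.71 on the log2 scale), and none was called.

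Acta2 was lower in the 12-month kidneys than at either other age. It was at 33.2, 26.04 and 30.4 CPM at 3 months, 18.7, 14.6 and 17.4 CPM at 12 months and 36.8, 28.6 and 24.4 CPM at 24 months. The 12-month kidneys lay below the 6 others, with a log2 fold change of -0.82 from 3 to 12 months (SE 0.186, adjusted p = 0.0543) and of 0.82 from 12 to 24 months (SE 0.186, adjusted p = 0.0729), and the ages of 3 and 24 months overlapped (0.00, adjusted p = 0.996). The gene model of Acta2 was version 8 at 3 months and version 9 at 12 and 24 months, so a different model cannot be told apart from age in the comparisons with 3 months, whereas 12 and 24 months share it. Other genes were low in the same kidneys. The 8 immediate early and heat shock genes summed to 75.8 to 192 CPM at 3 months, 37.1 to 52.8 CPM at 12 months and 107.7 to 908 CPM at 24 months. The 4 uroplakin genes of the urothelium, which lines the renal pelvis, were all called lower at 12 than at 3 months and summed to 17.7 to 101 CPM, 1.22 to 4.31 CPM and 11.8 to 33.8 CPM. Of the 12 contractile genes, 1, Cnn1, was called lower at 12 than at 3 months (-1.73, adjusted p = 0.0421). A higher estimate at 12 months was found for 5 of the 12, and their median was -0.20 on the log2 scale. The part of any of these genes in the Acta2 level was not tested.

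The mean of Tagln was also lowest at 12 months (33.2 CPM), but its 12-month kidneys did not lie below the others. Its log2 fold changes were -0.19 from 3 to 12 months and 0.22 from 12 to 24 months (SE 0.410 each). Whether the courses of Tagln and Acta2 differ was not tested. Tagln was at 35.8, 20.8 and 56.8 CPM at 3 months, 27.1, 48.0 and 24.6 CPM at 12 months and 40.3, 50.7 and 24.8 CPM at 24 months. The ages overlapped throughout, and the log2 fold change from 3 to 24 months was 0.03 (SE 0.410, adjusted p = 0.968). S100a4 was at 0.998, 0.553 and 2.14 CPM at 3 months, 0.520, 1.45 and 0.405 CPM at 12 months and 0.733, 0.638 and 0.415 CPM at 24 months. Its log2 fold change from 3 to 24 months was -1.04 (SE 0.595, adjusted p = 0.361), and without 3-month replicate 3 it was -0.37. The same 3-month kidney, replicate 3, and the same 12-month kidney, replicate 2, had the most Tagln and S100a4 of their age. Their 15 further fibroblast genes summed to 80.35 and 102.9 CPM (42.7 to 53.7 CPM in the others of these ages), and their adipocyte genes to 115.0 and 34.1 CPM (0.901 to 34.8 and 2.19 to 2.53 CPM in the others of each age). They had the least of the kidney epithelial genes of their age, 1257 and 912 CPM, and of the podocyte genes, 161.9 and 119.7 CPM. The part of these cell types in the Tagln and S100a4 levels was not tested.

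The receptors, the filaments and Postn moved less than the spread of the test allowed to call. Pdgfrb was at 15.2, 25.9 and 13.1 CPM at 3 months, 30.9, 22.9 and 35.1 CPM at 12 months and 41.3, 24.5 and 27.8 CPM at 24 months, with a log2 fold change of 0.79 (SE 0.303, adjusted p = 0.222) from 3 to 24 months. The 3-month replicate 2 overlapped both older ages. Pdgfra was at 10.8, 12.0 and 13.6 CPM, then 15.8, 23.8 and 17.4 CPM, then 22.9, 14.3 and 12.0 CPM, so that 12 months lay above 3 months (0.64, SE 0.259, adjusted p = 0.249) and 24 months overlapped both. Des was at 8.77, 11.1 and 11 CPM, then 13.4, 15.0 and 14.9 CPM, then 19.5, 11.5 and 11.35 CPM. Both older ages lay above 3 months, by a log2 fold change of 0.46 at 24 months (SE 0.222, adjusted p = 0.306) that became 0.16 without 24-month replicate 1. At 12 months, where Pdgfra and Des lay above 3 months, the endothelial genes summed to 320.0 to 331 CPM (203 to 275 CPM at 3 months) and the leukocyte genes to 94.8 to 97.6 CPM (58.1 to 69.1 CPM), with 8 of 8 genes higher by estimate in each list and 0 called, and their part in these levels was not tested. Vim was at 33.8, 42.0 and 33.6 CPM, then 36.2, 28.8 and 34.5 CPM, then 49.1, 41.5 and 50.7 CPM, with a log2 fold change of 0.51 from 12 to 24 months (SE 0.157, adjusted p = 0.167). Postn was at 1.76, 1.004 and 2.79 CPM, then 1.06, 1.32 and 0.907 CPM, then 1.62, 2.89 and 1.997 CPM. It was lowest at 12 months without being called (from 12 to 24 months 0.98, SE 0.379, adjusted p = 0.262). The 24-month replicate 1 was the highest of all 9 kidneys for 5 of the 10 genes, Acta2, Fn1, Pdgfrb, Des and Thy1. In the same kidney the immediate early and heat shock genes summed to 908 CPM (240.4 and 107.7 in the others of 24 months), the endothelial genes to 343 CPM (205.3 and 216.7) and the leukocyte genes to 145.2 CPM (100.3 and 102.4), and their part in these levels was not tested.

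**Figure D4:**
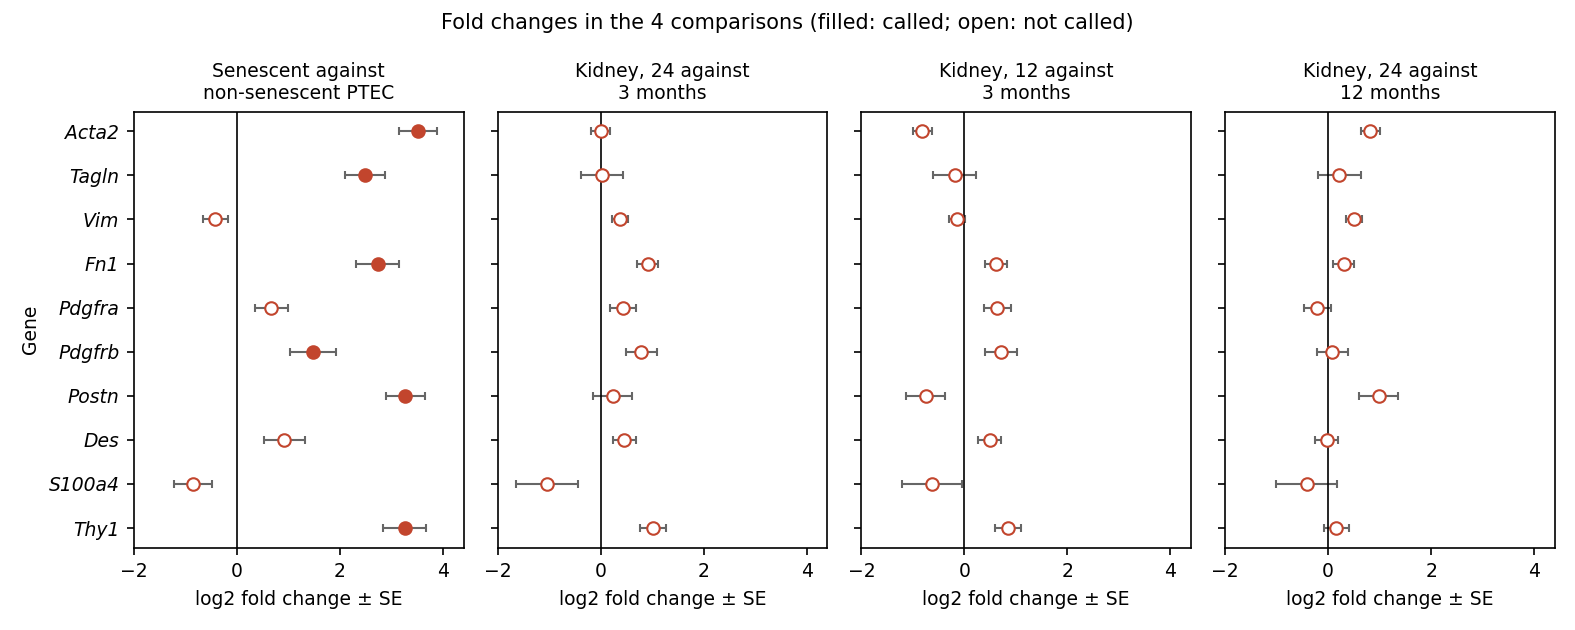
Log2 fold changes with standard errors of the 10 marker genes in the 4 comparisons, filled where called and open where not. In PTEC 6 genes are called, from 1.48 for Pdgfrb to 3.52 for Acta2, and in kidneys no gene is called, with values from -1.04 for S100a4 to 1.02 for Thy1.

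Calls in the further lists with age stand beside the shares of all genes called. These were 2.34% between 24 and 3 months, 2.58% between 12 and 3 months and 1.33% between 24 and 12 months. None of the 12 contractile genes was called between 24 and 3 months (median -0.05 on the log2 scale), and none of the 15 other fibroblast genes. Of 11 pericyte and mesangial genes only Ren1, the renin gene of juxtaglomerular cells, was called, lower at 24 than at 3 months (log2 fold change -1.59, adjusted p = 0.0185). Of 12 matricellular proteins and fibronectin receptors, Tgfbi was called higher at 24 than at 3 months (1.55, adjusted p = 0.0395), and Tnc (-1.34, 0.0494) and Thbs1 (-1.11, 0.0455) were called lower at 12 than at 3 months. The fibroblast gene Meox1 was called lower at 24 than at 12 months (-1.22, adjusted p = 0.0290). Pdgfb, the main ligand of Pdgfrb, was at 13.8 ± 2.11 CPM at 3 months and 21.2 ± 2.92 CPM at 24 months (SD, n = 3) and was not called (0.62, adjusted p = 0.0907). Among the lists of other cell types and of stress, the leukocyte gene Rac2 (1.59, adjusted p = 0.0188), the macrophage gene C1qc (1.05, 0.0395), the proximal tubule genes Slc5a2 (1.88, 0.00997), Slc5a12 (1.56, 0.0279) and Miox (0.74, 0.0449) and the immediate early gene Fos (5.4, 0.0471) were called higher at 24 than at 3 months. Fos was also called higher at 24 than at 12 months (6.36, adjusted p = 0.0443). Of the 11 proximal tubule genes, 9 had a higher estimate at 24 than at 3 months. Their sum was 46158 to 47400 CPM at 3 months and 39645 to 44217 CPM at 24 months. Most of it was Kap, with means of 35576 and 25080 CPM, which was not called (-0.50, adjusted p = 0.117). At 12 months, Krt18 (-2.21, adjusted p = 0.0396), Epcam (-1.1, 0.0148), Hspa1b (-3.7, 0.0282) and Hspa1a (-2.7, 0.0455) were called lower than at 3 months.

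Levels in PTEC and kidneys were set side by side without a test, since material, gene set and sequencing differ together. With all 17 libraries scaled together and per kilobase of exon, Tagln led in kidneys of every age, at 23.5 ± 11.4, 20.9 ± 8.14 and 23.9 ± 8.23 CPM per kb (SD, n = 3), followed by Acta2 and Vim. Postn was the least abundant of the 10 there, at 0.157 ± 0.0304 to 0.307 ± 0.0946. In non-senescent PTEC the order began with Vim, Fn1 and Tagln and ended with Pdgfra and Thy1, at 0.106 ± 0.0362 and 0.102 ± 0.0491 CPM per kb (n = 4). The receptors were lower in PTEC than in kidneys. The mean Pdgfra level on the joint scale was 14.1 times as high in 3-month kidneys as in non-senescent PTEC and Pdgfrb 7.25 times, and on this scale no PTEC culture of either group reached any kidney. Scaled to total counts instead, senescent replicates 2 and 4, at 16.2 and 14.0 CPM of Pdgfrb, overlapped the 3-month kidneys, of which the lowest had 12.99 CPM, while Pdgfra still did not overlap. Des, too, was 4.92 times as high in 3-month kidneys as in non-senescent PTEC. The opposite held for Fn1 and Vim, whose levels in non-senescent PTEC were 80.8 and 32.5 times those of 3-month kidneys. Acta2 of non-senescent PTEC overlapped that of 3-month kidneys, at 1.31 times its mean, and in senescent PTEC it was 14.8 times that mean. Thy1 of senescent PTEC, at 1.42 times the 3-month mean, overlapped kidneys of all 3 ages, and its place in the order depended on the scaling, since on total counts its mean of 3.75 CPM stood above the 3.33 CPM of 24-month kidneys.

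**Figure D5:**
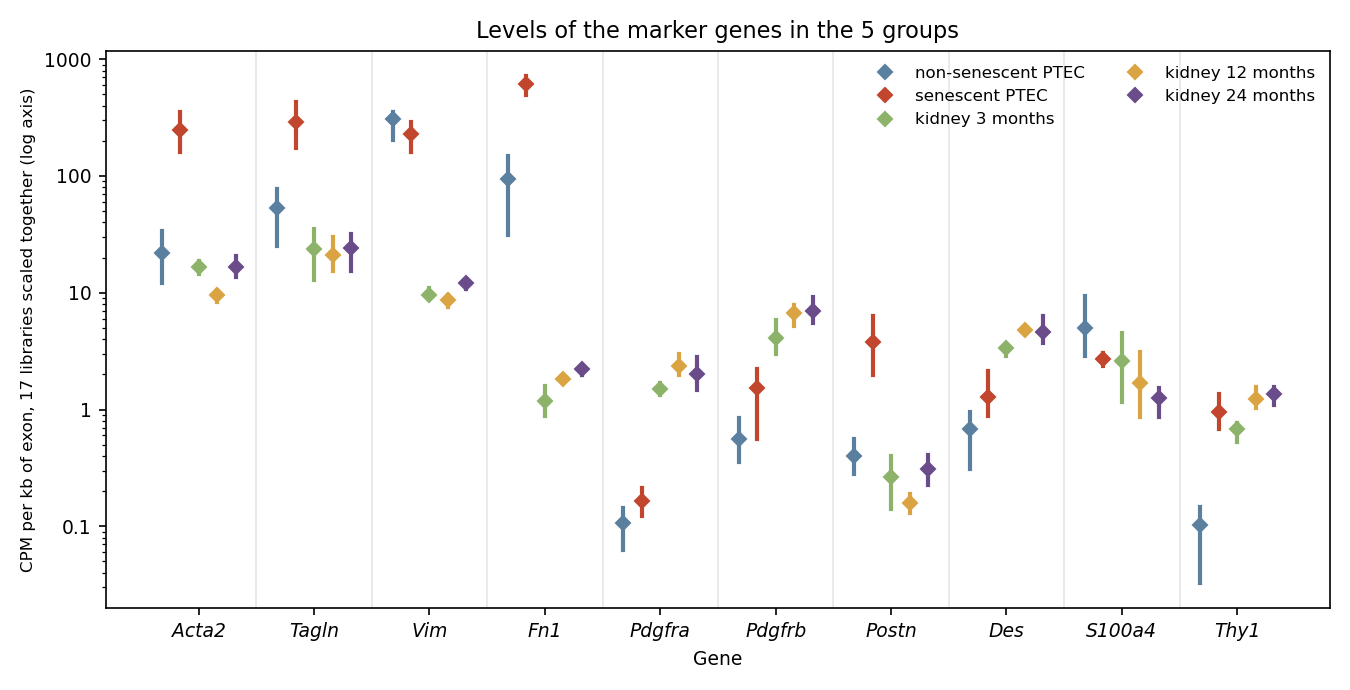
Levels of the 10 marker genes in the 5 groups, in CPM per kilobase of exon on a log axis with all 17 libraries scaled together. Diamonds are group means and lines run from the lowest to the highest library. Fn1 is at 619 in senescent PTEC and at 1.18 in 3-month kidneys, and Pdgfra is at 0.106 in non-senescent PTEC and at 1.495 in 3-month kidneys.

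For Acta2 and Pdgfrb, the genes with the most similar pattern were looked up by Pearson's correlation of log2 CPM. Over the 8 PTEC cultures and among 10953 genes, Acta2 was most like Cnn1 (r = 0.998), Myl9 (0.998), Lmod1 (0.994), Prkd1 (0.993) and Adcy3 (0.992). With the group means removed, so that only the differences between cultures of a group counted, these were 0.972, 0.991, 0.922, 0.927 and 0.922. The first 3 are genes of the contractile apparatus and belong to the list of contractile genes given above. Over the 9 kidneys and among 10392 genes, by contrast, Acta2 was most like Hsph1 (0.985), Ubxn4 (0.973), Litaf (0.971), Hsp90aa1 (0.963) and Jpt2 (0.962), of which Hsph1 and Hsp90aa1 encode heat shock proteins. With the ages' means removed they stood at 0.917, 0.933, 0.839, 0.824 and 0.820. Pdgfrb in kidneys was most like Bgn (0.988), Prelp (0.986), Khnyn (0.986), S1pr3 (0.985) and Sdc3 (0.984), where Bgn and Prelp are small proteoglycans of the matrix. In PTEC it was most like Gtf2i (0.961), Zfp646 (0.960), Zfp202 (0.957), Lrrc32 (0.949) and Zfp446 (0.949). The libraries of a point share their depth and scaling, and these are descriptions of the strongest of many correlations.

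Among themselves the 10 genes did not vary as 1 group. With the group means removed, Acta2 and Tagln went together over the 8 PTEC cultures (r = 0.93) and hardly over the 9 kidneys (r = 0.21). In kidneys Tagln went with S100a4 (0.94) and Postn (0.83), and against Pdgfrb (-0.71) and Vim (-0.89), whereas Pdgfra went with Des (0.87) and Pdgfrb with Vim (0.82). Fn1 went against S100a4 over the PTEC cultures (-0.90). Non-senescent replicate 3 had both the lowest Fn1 (456 CPM) and the highest S100a4 (6.86 CPM) of these cultures. The correlation without that culture was not computed, so this value may rest on it alone.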

How the data were processed

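The libraries were stranded and poly(A)-selected, with paired-end reads. The study's methods name nf-core/rnaseq 1.4.2 on GRCm38 and GENCODE M 18, but the files hold 3 gene sets, so that release cannot hold for every library. The values the authors deposited are raw counts of each gene, not normalized. The aligner and the counting tool are not given in the sources used here. The counts were used as deposited, in R 4.3.3 with edgeR 4.0.16 and DESeq2 1.42.0 and in Python 3.11.15. Symbols, positions and exon lengths were taken from GENCODE M 21. PTEC and kidneys were fitted apart, the 3 ages together. Libraries were scaled with TMM, low genes removed with filterByExpr, and groups tested by robust quasi-likelihood F-tests in edgeR, adjusted after Benjamini-Hochberg over all genes tested. All adjusted p-values are from edgeR unless DESeq2 is named. Log2 CPM used a prior count of 2, and likeness was computed among genes that averaged 5 CPM or more.

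The 10 genes, the gene lists and the tests were chosen with earlier results of these data known. The named genes are these 10, genes that overlap them, up to 3 called genes with the largest change of each list, all genes of lists of 4 or fewer, the 5 most similar genes of Acta2 and Pdgfrb, and Cdkn1a. Slc34a1, Lrp2, Pax8, Dcn, Lum, Myh11 and Col1a1, as defining genes of their cell types or lists, and Pdpn, Lck and Kap, for their share of a sum, were added after values had been seen. So were Cspg4, as the pericyte gene called lower in PTEC, and the endothelial, macrophage and epithelial genes whose call the replicate block changed. Mrtfa, Mrtfb, Ccn1 and Ccn2 were matched through older symbols.

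Same-numbered PTEC cultures deviated from their group means together, as each of the 4 pairs had an r between 0.187 and 0.614. Same-numbered mice of 24 and 12 months, which are different animals, also had r from 0.173 to 0.558. Such values therefore do not show that the cultures were paired. The test reported is the one without the replicate number as a block, and the block is given where it changes the call of a named gene in PTEC. No 2 replicates were alike within counting noise, since the chi-square divided by the number of genes lay between 17.0 and 341 in the 21 pairs. The fits were tested on simulated data, where both fits missed most of the smaller changes put in and found most of the larger ones. The absence of a call is therefore treated as weak evidence against a smaller change in PTEC and kidneys. Far fewer genes were changed in the simulation than were called in PTEC, so the share it missed may differ in the real cultures. The kidney fit also made more false calls than the nominal share, which makes its calls near the threshold weak evidence. Alternatives were other scalings, no filter, other fold thresholds, DESeq2, a replicate block, the compared ages alone, and each library left out in turn.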

Additional observations from a re-analysis of the deposited data

Results flagged for a closer look

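Vim in non-senescent PTEC was the 1 value set apart among 20 tests of the 10 genes in the 2 groups of 4 cultures. Replicate 4 had 1213 CPM and the other cultures had 2022, 2030 and 2086 CPM, so that the gap to the nearest culture took 0.926 of the whole range. The same culture had the lowest Acta2, Tagln and Des of its group and the highest sum of proximal tubule genes, 829 CPM against 229 to 277 CPM. Chance sets apart about 1 in 20 such groups. The groups of 3 kidneys are too small for this test.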

How the results depend on the processing

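In PTEC the number of marker genes called lay between 5 and 8 over all alternatives, between 5 and 7 with each culture left out, 6 with DESeq2 and 8 with the replicate block. Of 130 single values there, 124 kept their direction and their side of the threshold, 3 lost the call (Pdgfrb, given above), 3 gained it and 0 changed sign. In kidneys the block changed no call of the 10 genes, but of the genes of the further lists it kept 0 of 10 calls between 24 and 3 months, 1 of 12 between 12 and 3 months and 0 of 2 between 24 and 12 months. Same-numbered mice correlated with r from -0.423 to -0.038 between 24 and 3 months, from -0.703 to -0.055 between 12 and 3 months and from 0.173 to 0.558 between 24 and 12 months. DESeq2 called 2 of the genes between 24 and 3 months, 2 between 12 and 3 months and 1 between 24 and 12 months, against 0 with edgeR, while its share of all genes called was also higher (3.45%, 3.69% and 2.59%, against 2.34%, 2.58% and 1.33%). RLE size factors called 1, Acta2 (adjusted p = 0.0494), between 12 and 3 months. With each kidney left out, the counts lay between 0 and 1 for 24 against 3 months and between 0 and 2 for 12 against 3 months, where 3-month replicate 2 decided both: without it Fn1 was called at 24 months, and Acta2 (0.0461) and Fn1 (0.0168) at 12 months, as were 4.52% and 4.08% of all genes. The causes were not tested.

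Log2 fold changes that changed sign were all of uncalled genes. From 3 to 24 months Acta2 was at -0.01 with RLE size factors, with DESeq2 and with the replicate block, at -0.0034 with these ages alone, and from -0.17 to 0.12 with kidneys left out, turning to -0.08 without 3-month replicate 2 and to -0.17 without 24-month replicate 1. Tagln (-0.25 to 0.45 with kidneys left out) was at -0.02 with the block, at -0.0024 without 3-month replicate 1, at -0.25 without 3-month replicate 2 and at -0.21 without 24-month replicate 2, and Postn (-0.06 to 0.65) at -0.06 and -0.03 without 3-month or 24-month replicate 2. From 3 to 12 months Tagln (-0.54 to 0.23) was at 0.23 and S100a4 (-1.4 to 0.04) at 0.04 without 3-month replicate 3. From 12 to 24 months Tagln (-0.03 to 0.58) was at -0.03 without 24-month replicate 2, Pdgfrb (-0.18 to 0.22) at -0.08 without 12-month replicate 2 and at -0.18 without 24-month replicate 1, Des (-0.33 to 0.10) at 0.10 without 24-month replicate 2 or 3, and S100a4 (-0.72 to 0.36) at 0.36 without 12-month replicate 2. Of 50 group levels over all libraries, 19 moved by more than their SD when total counts replaced TMM, so levels between PTEC and kidneys hold only as broad orders. Thy1 with 4 to 15 counts in non-senescent PTEC is the value most limited by depth.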
